A study of Komagataella pastoris with 3 samples.

Results

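The step from 36 h to 48 h of culture was followed in messenger RNA of Pichia pastoris GS115, by setting the FPKM values of the 48 h library against those of the 36 h library. FPKM counts the fragments of a gene per kilobase of gene length as a share of all mapped fragments. It thus scales for gene length and for the number of mapped fragments, but not for a shift in the make-up of a library. Of the 5040 genes in the deposited table, 5025 had at least 1 FPKM in 1 or both of these libraries and entered the comparison. The account below centres on the 1744 genes that reached at least 100 FPKM at 36 h or 48 h. GS115 is a histidine auxotroph widely used to make recombinant proteins, is usually placed today in Komagataella phaffii, and is given as wild type in the labels. The 48 h cells, the 36 h cells and the 24 h cells shown beside them were all of this strain and, by the labels, differed in the hours spent shaking at 30°C in YPD, which supplies glucose together with peptone and yeast extract. There was 1 library per time point, and the labels do not say whether the time points came from the same flask. No value therefore has a replicate error, no p-value is given, and "higher" and "lower" compare libraries and not repeated cultures.

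In a batch culture, yeast takes up glucose in preference to most other carbon sources, and growth slows as the sugar runs out. Cells then live on what remains in a rich medium, such as amino acids, peptides and products released earlier, and yeasts in general reduce the making of ribosomes and build up stress protection and reserves as they enter stationary phase. P. pastoris can also grow on methanol, and its genes for methanol use are known for being held down by glucose. None of these functions can be assigned to single genes here. The deposited table names genes only by locus tag, the reference gene table at hand is for another species, Komagataella pastoris ATCC 28485, and 0 of the 5040 tags matched it. The state of the cultures was for the same reason not checked against marker genes, and no sequence is shown.

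Between 36 h and 48 h, genes that reached 100 FPKM in either library differed more widely than the table as a whole, in both directions. Change is the difference in log2(FPKM + 1), 48 h minus 36 h, a scale that understates the change of low genes, and a gene was called higher or lower when this difference was at least 1 in size, which is a 2-fold rule of size and not a test. Among all 5025 genes, 679 were called higher at 48 h and 654 lower, a background of 13.5% higher and 13.0% lower. Of the 1744 genes of the higher level, 333 were called higher, or 19.1%, and 367 lower, or 21.0%. At least 4-fold differences were found in 111 of these genes upward and 108 downward (6.36% and 6.19%, against 2.83% and 2.97% of all genes). At least 8-fold differences were found in 30 genes upward and 45 downward (1.72% and 2.58%, against 0.637% and 1.09%). A level of 100 FPKM in either library admits a gene through whichever library is high, so the larger shares follow in part from how the genes were chosen. With at least 100 FPKM in both libraries, 115 of 1019 genes were called higher, a smaller share than among all genes. Under that rule 167 were called lower, a larger share than among all genes. A bulk library averages all cells in the flask, and fewer cells in a given state cannot be told apart from less RNA per cell.

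The centre of the distribution hardly moved while its width was large. The median change was 0.0032 among the 1744 genes and 0.03 among all 5025. The middle 50% of the 1744 genes lay between -0.86 and 0.78, and 5% of them were below -2.21 and another 5% above 2.13. For the 3281 genes under 100 FPKM in both libraries the middle 50% lay between -0.46 and 0.53. A change of less than 0.5 in size was seen in 565 of the 1744 genes, or 32.4%, and in 44.0% of all 5025. FPKM totals were 760684 at 48 h and 785727 at 36 h, with median gene levels of 51.4 and 48.2 FPKM. Because FPKM is a share of the library, a gene can be higher at 48 h with the same amount of RNA per cell if abundant genes were lower.

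**Figure D1:**
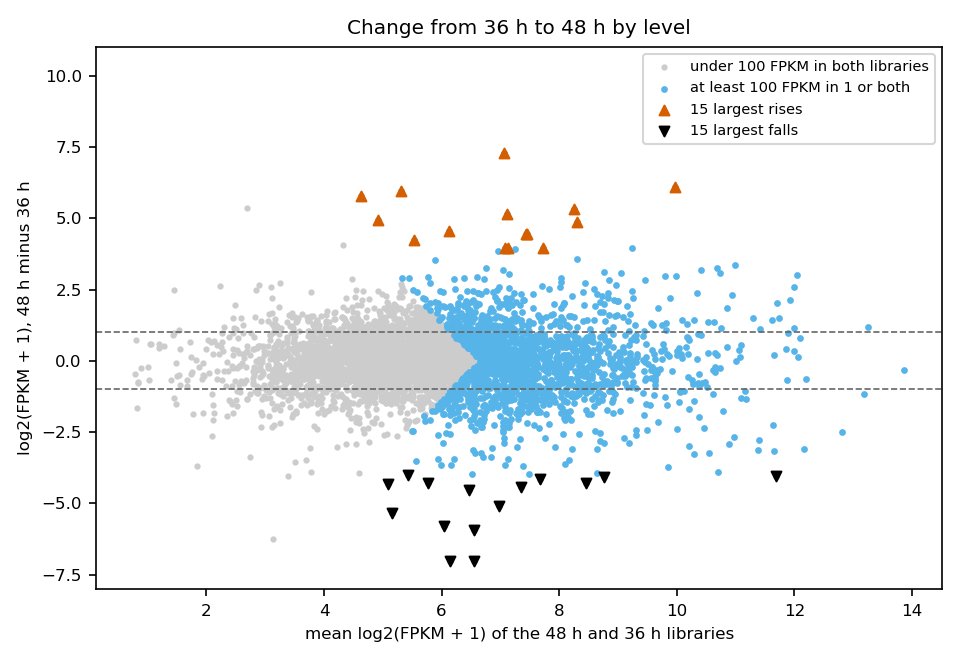
Each point is 1 of 5025 genes, with its mean log2(FPKM + 1) over the 48 h and 36 h libraries on the x axis and its difference, 48 h minus 36 h, on the y axis, and dashed lines mark the 2-fold rule. The 15 largest rises lie between 3.94 and 7.27 and the 15 largest falls between -7.02 and -4.00; the pointed left edge of the blue points is the limit of 100 FPKM.

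The 15 largest rises among genes of at least 100 FPKM were genes of low level at 36 h. Their 48 h values ran between 166 and 8251 FPKM with a median of 805, and their 36 h values between 2.33 and 121 FPKM with a median of 33.1. Every one of the 15 was higher at 48 h than the highest of the 15 was at 36 h. At 24 h they had stood between 6.38 and 109 FPKM, with a median of 15.9. They were named for the size of this change, so the gap between the libraries is a description. They are grouped here by the 24 h value, and the 36 h library enters both the earlier and the later difference. The share of all genes in each such group is not given, here or for the falls.

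For 8 of the 15, the 36 h level was within 2-fold of the 24 h level, so that the change appeared only in the last interval sampled. PAS_chr3_0023, the largest rise of all, had 8.97, 9.72 and 1658 FPKM at 24, 36 and 48 h, a change of 7.27 that took it to rank 52 of the table, against rank 4723 at 36 h. PAS_chr1-3_0011 had 109, 57.2 and 1703 FPKM at 24, 36 and 48 h. PAS_chr4_0821 had 11.8, 22.1 and 822 FPKM at 24, 36 and 48 h, a change of 5.16. In these genes the 24 h and 36 h values lie close together and the 48 h value stands apart. PAS_chr4_0043 followed the same course with 27.9, 36.5 and 824 FPKM at 24, 36 and 48 h. PAS_chr4_0540 had 59.6, 53.2 and 830.4 FPKM at these times. PAS_chr4_0375 had 65.2, 34.5 and 545 FPKM. PAS_chr4_0043 and PAS_chr4_0540 thus ended at nearly the same level although they had started from different ones. PAS_chr3_0348 reached a lower level, with 15.9, 13.4 and 335 FPKM at 24, 36 and 48 h. PAS_chr4_0588 was the lowest of the 8 at 48 h, with 6.38, 9.55 and 199.9 FPKM at 24, 36 and 48 h.

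In another 4 of the 15 the 36 h level already exceeded the 24 h level at least 2-fold. The later step was the larger in each, in genes named for the size of that step. PAS_chr1-1_0158 had 52.4, 121 and 8251 FPKM at 24, 36 and 48 h, with a change of 1.19 between 24 and 36 h and 6.08 between 36 and 48 h. It thereby came to rank 5 of the table at 48 h, against rank 1144 at 36 h. PAS_chr1-4_0481 had 10.3, 47.3 and 1915 FPKM at 24, 36 and 48 h, 186-fold higher at 48 h than at 24 h. PAS_chr4_0268 had 6.67, 35.8 and 805 FPKM at the same times. PAS_chr2-1_0748 had 11.4, 33.1 and 530.04 FPKM. At 36 h the highest of the 4 was at 121 FPKM, and at 48 h the lowest was at 530.04.

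The remaining 3 dipped at least 2-fold by 36 h and then exceeded their 24 h level. PAS_chr1-1_0085 had 37.0, 2.33 and 183 FPKM at 24, 36 and 48 h. PAS_chr1-1_0418 had 22.1, 4.05 and 309 FPKM at 24, 36 and 48 h. PAS_chr3_1063 had 13.2, 4.48 and 166 FPKM. Their large changes, between 4.93 and 5.94, start from 36 h values between 2.33 and 4.48 FPKM, the least certain part of a table whose depth is unknown. Against 24 h they were 4.94- to 13.95-fold higher at 48 h, lower than the 46.6- to 186-fold of the 4 genes that had already been higher at 36 h. The groups were formed by the difference between 24 h and 36 h, which is part of this fold. The order of the groups therefore follows in part from the grouping.

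The 15 largest falls came from genes of middle to very high level at 36 h. Their 48 h values ran between 4.61 and 819.7 FPKM with a median of 11.4, and their 36 h values between 152 and 13379 FPKM with a median of 735. At 48 h, 9 of the 15 were under 20 FPKM. Their 24 h values spanned most of the table, between 3.17 FPKM at rank 5000 and 3206 FPKM at rank 35. The 24 h median was 515 FPKM. At 24 h, 9 of the 15 had at least 100 FPKM, beside 1103 of all 1744 genes.

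For 6 of the 15 falls, 36 h was a peak, with a level at least 2-fold above that of 24 h. PAS_chr3_0377 had 41.2, 1067 and 7.24 FPKM at 24, 36 and 48 h, and its change of -7.02 was the largest fall. PAS_chr2-2_0113, with the same change of -7.02 to 2 decimals, had 3.17, 802 and 5.21 FPKM at 24, 36 and 48 h. Both were in the lowest part of the table at 48 h, at ranks 4798 and 4888 of 5040, whereas at 24 h they had stood at ranks 3147 and 5000. PAS_chr4_0065 had 7.68, 13379 and 819.7 FPKM at 24, 36 and 48 h, and unlike the others it stayed 107-fold above its 24 h level. PAS_chr4_0151 had 88.6, 754 and 34.04 FPKM at 24, 36 and 48 h. PAS_chr4_0008 had 39.8, 224 and 4.61 FPKM. The peaks of the 6 genes differ widely in height, between 170.5 and 13379 FPKM. PAS_chr3_1184 had the lowest of them, with 23.7, 170.5 and 9.69 FPKM.

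In another 6 falls the level at 36 h was within 2-fold of that at 24 h, and the drop was seen only at 48 h. PAS_chr3_0225 had 515, 490.3 and 7.88 FPKM at 24, 36 and 48 h, a change of -5.79. PAS_chr2-2_0065 had 939, 735 and 20.7 FPKM at 24, 36 and 48 h. PAS_chr3_0957 had 586, 422 and 17.3 FPKM. Each of these had thus been well expressed at both earlier times. PAS_chr2-1_0642 was the most abundant of the 6 at 36 h, with 919, 1781 and 106 FPKM at 24, 36 and 48 h. PAS_chr3_0943 had 723, 854 and 47.1 FPKM. PAS_chr1-4_0553 was the least abundant, with 119, 152 and 6.60 FPKM. Their 48 h levels were between 0.015 and 0.115 times their 24 h levels.

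The last 3 falls continued a decline. PAS_chr2-1_0016 had 3206, 732 and 10.99 FPKM at 24, 36 and 48 h, so that the later difference, -5.93, was larger than the earlier one, -2.13. PAS_chr1-1_0479 had 3109, 1547 and 79.4 FPKM at 24, 36 and 48 h. PAS_chr4_0953 had 548, 239.6 and 11.4 FPKM. In all 3 the later difference was the larger in size on the log2 scale, in genes named for the size of that difference.

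**Figure D2:**
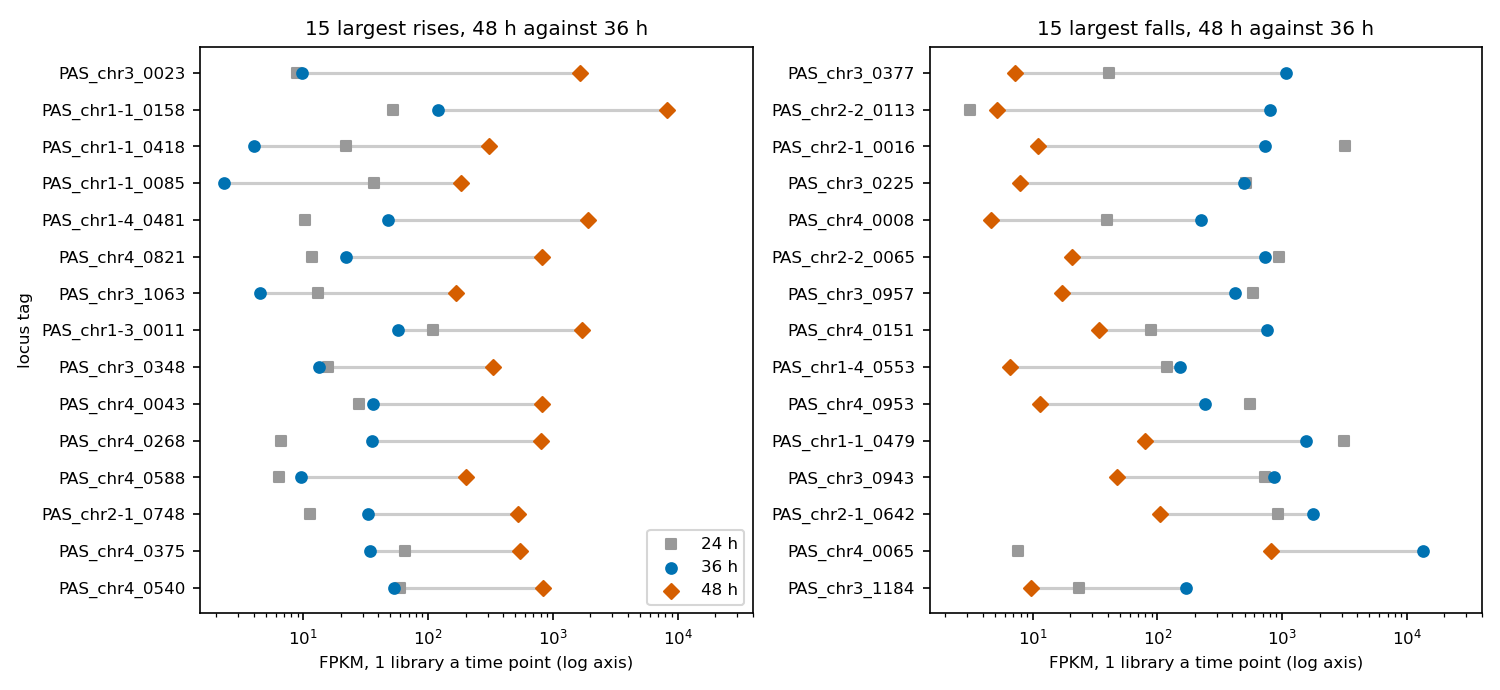
FPKM on a log axis for the 15 largest rises (left) and the 15 largest falls (right) from 36 h to 48 h, with 1 library per time point, a grey bar joining the 48 h and 36 h values, and the 24 h value as a grey square. All 15 rises end above their 24 h square, whereas among the falls the square lies below, between or above the 48 h and 36 h points.

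The limits used are marked by genes that differ little across them. PAS_chr3_0271, with 100.03 FPKM at 48 h and 56.4 at 36 h, was just inside the limit of 100 FPKM, and PAS_chr4_0924, with 99.9 at 48 h and 91.4 at 36 h, just outside it. The next gene after the 15 rises was PAS_chr3_0836, with 6.83, 153 and 2356 FPKM at 24, 36 and 48 h and a change of 3.94, which equals that of the last gene named to 2 decimals. After the 15 falls came PAS_chr1-1_0448, with 671, 711 and 44.3 FPKM at 24, 36 and 48 h and a change of -3.97.

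The largest amounts of signal moved in other genes than the largest folds. Summed over the 2600 genes whose FPKM was higher at 48 h, the gain was 262402 FPKM, and summed over the 2435 genes whose FPKM was lower, the loss was 287446 FPKM. The 15 largest gains made up 30.9% of the gain, and the 15 largest losses 35.3% of the loss. Only PAS_chr1-1_0158 was among both the 15 largest gains in FPKM and the 15 largest rises in log2, and only PAS_chr4_0065 among both the 15 losses and the 15 falls. The 15 genes with the largest gains held 13.9% of the 48 h total and 3.12% of the 36 h total, after 0.413% of that at 24 h. The 15 with the largest losses held 4.27% at 48 h and 17.0% at 36 h, after 8.93% at 24 h.

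The gains were led by PAS_chr4_0627, which had 79.7, 1486 and 11902 FPKM at 24, 36 and 48 h. PAS_chr4_0972 had 58.6, 1655 and 10023 FPKM at 24, 36 and 48 h. PAS_chr3_0932, the most abundant gene at 48 h, added 8109 FPKM to its 36 h level, which is a change of 1.17 on the log2 scale. These genes differ from the largest rises in that they were already abundant at 36 h. A ranking by FPKM favours abundant genes, so this difference follows in part from the ranking. Of the 15 genes with the largest gains, 14 had exceeded their 24 h level at least 2-fold by 36 h, and 9 had reached 1000 FPKM by then. Of all 5040 genes, 98 had at least 1000 FPKM at 36 h. The share of all genes that exceeded their 24 h level at least 2-fold by 36 h is not given. PAS_chr2-1_0874 had 253, 1863 and 8156 FPKM at 24, 36 and 48 h. PAS_chr2-2_0208 had 21.6, 634 and 6525 FPKM. The exception to the early increase was PAS_chr3_0440, with 305, 531 and 5026 FPKM at 24, 36 and 48 h.

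The losses were led by PAS_chr2-1_0437, the most abundant gene at 36 h, which had 10954, 16999 and 3033 FPKM at 24, 36 and 48 h. PAS_chr4_0065, described above, fell by 12559 FPKM. PAS_chr1-4_0570 had 4507, 13453 and 1577 FPKM at 24, 36 and 48 h. All 3 remained at 819.7 FPKM or more at 48 h, so a large loss of signal here left a well expressed gene. PAS_chr3_0188 had 7289, 9520.3 and 1077 FPKM at 24, 36 and 48 h. PAS_chr3_0826 had 7429, 6384 and 433 FPKM, and at -3.88 came close to the 15 largest falls. Of the 15 genes with the largest losses, 13 had at least 1000 FPKM at 24 h, and 8 had a 36 h level within 2-fold of the 24 h level. Their losses therefore came mostly from genes abundant at both earlier times, although a large loss in FPKM itself requires a high 36 h level. The exception in fold was PAS_chr2-1_0472, with 7055, 16505 and 13308 FPKM at 24, 36 and 48 h, a change of only -0.31.

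**Figure D3:**
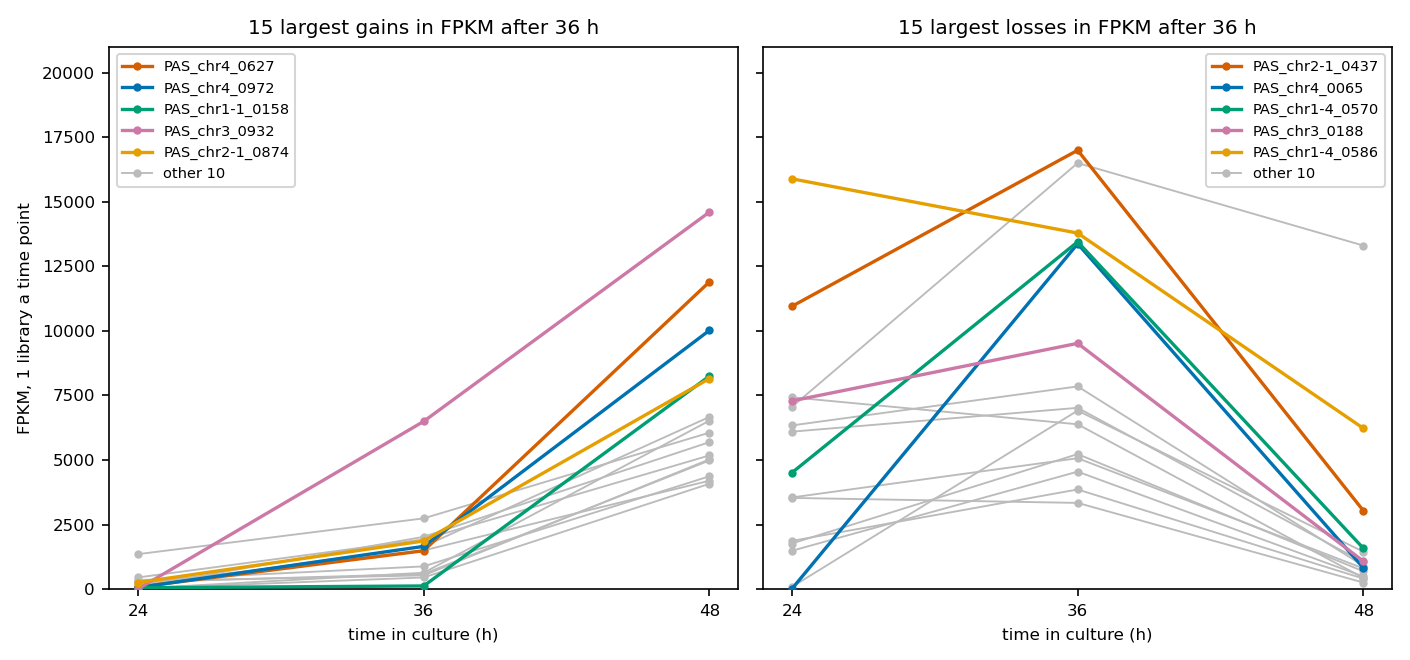
FPKM at 24, 36 and 48 h for the 15 genes that gained the most FPKM after 36 h (left) and the 15 that lost the most (right), with the 5 largest steps in colour and 1 library per time point. The gaining genes start at 1353 FPKM or less at 24 h and end between 4081 and 14606 FPKM, while most losing genes are high at 24 and 36 h and end at 3033 FPKM or less, with PAS_chr2-1_0472 at 13308 and PAS_chr1-4_0586 at 6226.

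The highest places of the table were largely held by other genes at 48 h. Of the 10 most abundant genes at 48 h, 3 were among the 10 most abundant at 36 h, namely PAS_chr3_0932, PAS_chr2-1_0472 and PAS_chr1-4_0586. Of the 20 most abundant at 48 h, 5 were among the 20 at 36 h, and none of the other 15 had been among the 20 at 24 h. Of the 50 most abundant, 21 were shared. The 10 most abundant at 36 h were all within rank 137 of 5040 at 48 h, and the 20 within rank 314. The 10 most abundant at 48 h had been within rank 1144 at 36 h. Among the 20 most abundant at 36 h, 3 changed by less than 0.5 on the log2 scale. Besides PAS_chr2-1_0472 these were PAS_chr1-1_0407, with 4456 FPKM at 48 h and 4045 at 36 h, and PAS_chr4_0785, with 4558 FPKM at 48 h and 3609 at 36 h. The 10 highest genes held 12.1% of the 48 h total and 14.2% of the 36 h total.

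Among the 1744 genes, most of those called higher at 48 h had been under 100 FPKM at 24 h as well as at 36 h. The 333 genes called higher had median levels of 49.9, 69.1 and 242 FPKM at 24, 36 and 48 h, and held 3.004%, 8.26% and 33.1% of total FPKM at these times. Their 24 h values are outside the comparison, and 264 of the 333 were under 100 FPKM there, or 79.3%, against 36.8% of all 1744 genes. At both 24 h and 36 h, 204 of the 333 were under 100 FPKM, or 61.3%, against 18.8% of the 1744. A gene under 100 FPKM at 36 h entered the 1744 only through its 48 h value. It could therefore not be called lower, and the larger share follows in part from how the genes were chosen. The 367 genes called lower had medians of 271, 294 and 87.6 FPKM at 24, 36 and 48 h, and held 32.7%, 36.1% and 9.03% of total FPKM. Of these, 318 had at least 100 FPKM at 24 h, or 86.6%, against 63.2% of the 1744. Every gene called lower had at least 100 FPKM at 36 h. Of all 1353 genes with at least 100 FPKM at 36 h, 76.9% also had it at 24 h. This larger share too thus follows in part from the choice of genes. The 1044 genes within 2-fold held 44.3%, 40.7% and 41.8%. The 333 and 367 genes were chosen by this change, so the direction of their 48 h and 36 h shares follows from the choice.

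Most genes that came above 100 FPKM by 48 h had been under it at both earlier times, as had most genes under it at 36 h. From under 100 FPKM at 36 h to at least 100 FPKM at 48 h went 391 genes, and 328 of them had also been under 100 FPKM at 24 h, so that 63 regained a level held earlier. That is 16.1% with at least 100 FPKM at 24 h, beside 11.3% of all 3687 genes that were under 100 FPKM at 36 h. In the other direction 334 genes went below 100 FPKM by 48 h, of which 247 had been at or above it at 24 h. That is 74.0%, beside 76.9% of all 1353 genes at or above 100 FPKM at 36 h. Many of these crossings were small, and 173 of the 391 and 134 of the 334 were within 2-fold. Steps across the range between 100 and 1000 FPKM were rare. Besides PAS_chr3_0023, PAS_chr1-4_0481 and PAS_chr1-3_0011, only PAS_chr1-3_0165 passed it upward, with 1087 FPKM at 48 h and 90.4 at 36 h. Only PAS_chr3_0377 and PAS_chr1-1_0479 passed it downward.

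The direction after 36 h went with the level at 24 h, which does not itself enter the change. The 1744 genes were divided into 4 classes of 436 by their 24 h FPKM. In the lowest class, up to 68.9 FPKM at 24 h, 51.8% were called higher at 48 h and 6.19% lower, with a median change of 1.04. In the highest class, from 291 FPKM at 24 h upward, 3.21% were called higher and 39.0% lower, with a median change of -0.74. A gene low at 24 h had to be higher at 36 h or 48 h to reach 100 FPKM there, which bears on these shares. Among all 5025 genes, where that condition does not apply, the shares were 23.5% higher and 6.21% lower in the lowest class, and 4.78% higher and 27.9% lower in the highest. The order across the classes was the same in both sets, although the lowest class of all genes had a median of only 22.4 FPKM at 48 h and 18.3 at 36 h. The classes by 24 h level also ordered the 36 h level, which does enter the change. Among all genes its medians were 18.3, 36.3, 63.5 and 199.8 FPKM from the lowest class to the highest.

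**Figure D4:**
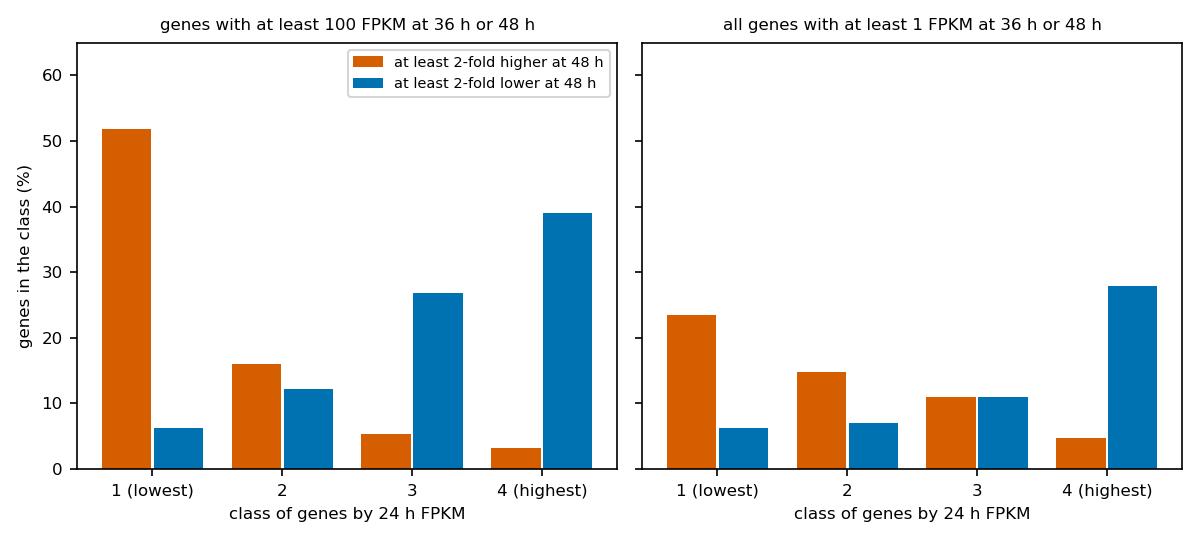
Percent of genes called at least 2-fold higher or lower at 48 h than at 36 h, with genes in 4 classes of equal size by their 24 h FPKM, for the 1744 genes that reached 100 FPKM at 36 h or 48 h (left) and all 5025 genes (right). From the lowest to the highest class the share of higher genes goes down and that of lower genes goes up, between 51.8% and 3.21% higher and between 6.19% and 39.0% lower on the left.

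By the prefix of their tags, the called genes were spread over all 4 chromosomes in similar shares. Of genes at this level in either library, those called higher made up 19.5%, 19.0%, 18.4% and 20% on chromosomes 1 to 4 in that order, and those called lower 23.2%, 19.7%, 20.3% and 21.2%. The 15 largest rises included 6 tags of chromosome 4, 5 of chromosome 1, 3 of chromosome 3 and 1 of chromosome 2. The 15 largest falls included 5 of chromosome 3, 4 of chromosome 4, 4 of chromosome 2 and 2 of chromosome 1.

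No consecutive tag of the 30 genes named was itself among the 30, though some of these neighbours changed by 2-fold or more. The 28 tags numbered next to the rises had a median change of 0.37, and 6 of them, or 21.4%, were called higher by the 2-fold rule at any level, against 13.5% of all genes, while 4, or 14.3%, were called lower, against 13.0%. The 29 next to the falls had a median change of 0.06, and 8 of them, or 27.6%, were called lower, and 6, or 20.7%, were called higher, against the same shares of all genes. Among 660 pairs of consecutive tags in which both genes reached 100 FPKM, 36 pairs were higher together, 40 lower together and 54 called in opposite directions. At this level 19.1% of single genes were called higher and 21.0% lower. Whether neighbours changed together more often than these shares give was not tested. An opposite pair was formed by PAS_chr4_0151, with its change of -4.43, and PAS_chr4_0152, which had 588 FPKM at 48 h and 38.3 at 36 h, a change of 3.90.

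Longer runs of consecutive tags called in the same direction were found when genes of any level were counted. Of 4772 pairs of consecutive tags at any level, 133 were higher together, 114 lower together and 152 called in opposite directions. Single genes were called higher in 13.5% and lower in 13.0% of all 5025. Whether pairs or runs were more frequent than these shares give was not tested. With 4772 pairs in place of 660, longer runs also had more places to arise. There were 2 runs of 5 higher genes, 4 runs of 4 higher genes and 5 runs of 4 lower genes. When each gene also had to reach 100 FPKM, the longest runs held 3 genes, in 4 runs of higher and 3 of lower genes. The 5 tags starting at PAS_chr1-1_0352 had changes of 3.24, 2.02, 4.07, 2.47 and 2.92. At 48 h they stood between 80.7 and 330 FPKM and at 36 h between 3.86 and 37.3 FPKM. The 5 tags starting at PAS_chr1-3_0165 had changes of 3.57, 2.24, 1.44, 1.23 and 2.91, and the first and last of them had the highest levels at 48 h, PAS_chr1-3_0165 with 1087 FPKM and PAS_chr1-3_0169 with 711. Among lower genes, the 4 tags starting at PAS_chr4_0063 had changes of -1.45, -3.63, -4.03 and -1.70. Within this run PAS_chr4_0064 had 25.7, 966 and 77.2 FPKM at 24, 36 and 48 h, a peak at 36 h like that of PAS_chr4_0065, while PAS_chr4_0066 had 242, 282 and 85.8 FPKM. The runs were picked out after their values were seen. Whether consecutive tags lie on the same strand or overlap was not analysed here, and reads shared between overlapping genes could not be told apart.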

How the data were processed

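Messenger RNA of Pichia pastoris GS115 was sequenced at 24, 36 and 48 h, in 1 library each. The authors deposited 1 FPKM value per gene and library, per the file headers, and CASAVA and HISAT2 2.1.0 are named in the submitters' processing notes. Not given in the sources used here are the quantifier, genome build, annotation, strandedness and filters. Each column was tied to a sample through the code in its title, and 0 columns were left unused. Sequencing depth is unknown: among 34 genes under 3 FPKM at both 36 and 48 h, the best common scaling placed 29.4% of ratios within 0.2% of a ratio of whole numbers up to 12, so whole reads were not recovered.

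Genes with at least 1 FPKM at 36 or 48 h were kept, which removed 15. Change was the difference of log2(FPKM + 1), and a size of 1 was the 2-fold rule. Named were the 15 largest rises and 15 largest falls among genes with at least 100 FPKM at 36 or 48 h and none listed at 0 in these libraries; genes outside this rule were named after their values were seen. Members, rules and lists were chosen with earlier results of these data known. The 12 gene lists prepared by symbol had 0 members, since 0 of 5040 tags matched the 5305 reference genes. Alternatives were pseudocounts of 0.1 and 10, other filters and levels, median-of-ratios and trimmed-mean scaling (30% of ratios and 5% of levels trimmed on each side) and a 4-fold rule. The counting was checked on simulated data. Analyses used Python 3.11.15, numpy 2.4.6, pandas 2.3.3 and matplotlib 3.10.9.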

Additional observations from a re-analysis of the deposited data

How the results depend on the processing

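Of the 32 alternative counts of genes called in either direction, 25 stayed within 1.5 times the reported count. Some of these could not move. Leaving out the filter cannot add a called gene, and a filter at 10 FPKM removes no gene of at least 100 FPKM. The stricter 4-fold rule by itself gave 142 higher and 149 lower genes among all, and 111 and 108 among those of at least 100 FPKM. With at least 50 FPKM in either library, 510 of 2971 genes were higher and 486 lower. That is the reverse order of the 333 and 367 at 100 FPKM. With at least 100 FPKM in both libraries, which leaves out every gene that crossed this level, 115 of 1019 were higher and 167 lower. Which direction was the more frequent among all genes depended on the settings: against 679 higher and 654 lower, there were 647 and 683 with median-of-ratios scaling, 654 and 674 with trimmed-mean scaling, 468 and 478 with a pseudocount of 10, and the order also turned with the 4-fold rule. The median change of all genes was -0.00054 and 0.0053 with these scalings and 0.038 with a filter at 10 FPKM. None of the 30 named genes turned direction or came under 2-fold in 120 values under the pseudocounts and scalings, a weak check of genes picked for their large changes; with a pseudocount of 10, 13 of the 15 rises and 12 of the 15 falls were still among the 15 largest. No paired analysis was possible because there was a single library at 24, 36 and 48 h. Unknown depth limits the genes of few FPKM most.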

Other observations

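Among the 3281 genes under 100 FPKM at both 48 h and 36 h, 346 were called higher at 48 h, or 10.5%, and 287 lower, or 8.75%. The largest rise among them with no value listed at 0 was that of PAS_chr1-1_0354, which had 6.99, 3.86 and 80.7 FPKM at 24, 36 and 48 h. The largest such fall was that of PAS_chr3_0904, which had 73.3, 41.2 and 1.57 FPKM at 24, 36 and 48 h. PAS_chr3_0517 peaked at 36 h, with 8.09, 92.4 and 5.17 FPKM at these times.

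A value of 0 at 36 h or 48 h was listed for 11 genes, 5 of them at 0 in both, and none reached 100 FPKM in either. PAS_chr1-4_0249 was listed at 0 at 48 h, after 184 FPKM at 24 h and 74.97 at 36 h. PAS_chr1-4_0442 was listed at 0 at 36 h, with 25.3 FPKM at 24 h and 40.2 at 48 h. No fold is given for these genes.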
